A study of Mus musculus with 32 samples.

Results

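The constitutive androstane receptor CAR (*Nr1i3*), the pregnane X receptor PXR (*Nr1i2*) and 3 cytochrome P450 genes of the Cyp2b family, *Cyp2b9*, *Cyp2b10* and *Cyp2b13*, were followed in mouse liver. They were taken by gene name, 5 of the 54532 genes counted, and each name was found once. Liver mRNA had been sequenced from 32 C57BL/6 mice at 12 weeks of age, 4 in each of 8 groups: female WT chow, female KO chow, female WT SC-435, female KO SC-435 and the same groups in males. WT mice were wild type, and KO mice were *Cyp2c70*-/-, a line bred from a founder in which CRISPR-Cas9 had removed exon 2 of *Cyp2c70*, the enzyme with which mouse liver makes muricholate bile acids (BAs). SC-435 is an inhibitor of the ileal BA transporter (IBAT), mixed into chow at 0.006% (about 11 mg/kg/day), and every mouse ate chow or this diet freely, without a fast before collection. The study asked whether keeping BAs from returning to the liver protects *Cyp2c70* KO mice, and RNA-Seq was used to look for pathways behind a benefit.

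CAR and PXR are nuclear receptors of hepatocytes that sense drugs, hormones and BAs. Each pairs with the retinoid X receptor on DNA, and each raises transcription of enzymes and transporters that oxidize, conjugate and export such compounds. CAR waits in the cytoplasm until an activator or a change in phosphorylation lets it enter the nucleus, so the mRNA of a receptor and its activity are separate quantities. *Cyp2b10* is the textbook CAR target of mouse liver, whereas *Cyp2b9* and *Cyp2b13* are known as genes of the female liver, under the control of the pituitary pattern of growth hormone.

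In GRCm38, *Nr1i3* (ENSMUSG00000005677) lies on the plus strand at chr1:171213970-171220701 and *Nr1i2* (ENSMUSG00000022809) on the minus strand at chr16:38248323-38294824. The 3 Cyp2b genes follow each other on the plus strand of chromosome 7, *Cyp2b10* (ENSMUSG00000030483) at chr7:25897620-25926624, *Cyp2b13* (ENSMUSG00000040583) at chr7:26061497-26096197 and *Cyp2b9* (ENSMUSG00000040660) at chr7:26173411-26210661, with 134872 and then 77213 bases between neighbours. The longest coding transcript of each Cyp2b gene has 9 exons. The aligned transcripts of *Cyp2b9* and *Cyp2b13* were identical at 91.9% of bases, and those of *Cyp2b10* at 87.5% and 88.1% with the former and the latter. Of the 50-base words in its transcripts, *Cyp2b13* shared 27.3% with other genes, most often the pseudogene *Gm45225*. The shares were 11.2% for *Cyp2b9* and 8.70% for *Cyp2b10*, and 0 for *Nr1i3* and *Nr1i2*. Reads that lie wholly within such words cannot be placed on 1 gene, so counts of the Cyp2b genes are uncertain. The shares do not give the size of that uncertainty, since read length, pairing and mismatches were not taken into account. Annotated exons of *Tomm40l*, on the opposite strand, cover 3304 of the 4414 exon bases of *Nr1i3*. Whether counting used the strand is not given in the sources used here, so the reads of *Nr1i3* and *Tomm40l* may not be told apart over those bases, and the level of *Nr1i3* per kilobase is uncertain.

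The 3 Cyp2b genes are printed with the 250 bases before their RefSeq start (GRCm38.p6, plus strand, 5′ to 3′), because *Cyp2b9* and *Cyp2b13* shared both their expression in females and nearly all of this sequence. Capitals mark AGGTCA, the hexamer that many nuclear receptors bind. The windows are chr7:26173159-26173408, chr7:26061245-26061494 and chr7:25897408-25897657, in the order of the lines. That of *Cyp2b10* runs past the gene start given above, chr7:25897620, whereas those of *Cyp2b9* and *Cyp2b13* end before theirs.
Cyp2b9: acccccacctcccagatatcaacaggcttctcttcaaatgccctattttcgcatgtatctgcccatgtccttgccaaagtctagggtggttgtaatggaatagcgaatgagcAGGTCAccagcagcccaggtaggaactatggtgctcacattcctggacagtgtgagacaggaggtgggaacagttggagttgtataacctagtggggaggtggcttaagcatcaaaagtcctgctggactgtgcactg
Cyp2b13: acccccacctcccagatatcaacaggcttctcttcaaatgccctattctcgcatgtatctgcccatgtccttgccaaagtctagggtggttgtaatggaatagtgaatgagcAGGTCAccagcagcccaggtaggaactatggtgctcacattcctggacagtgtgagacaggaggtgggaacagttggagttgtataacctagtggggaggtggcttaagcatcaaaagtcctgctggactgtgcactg
Cyp2b10: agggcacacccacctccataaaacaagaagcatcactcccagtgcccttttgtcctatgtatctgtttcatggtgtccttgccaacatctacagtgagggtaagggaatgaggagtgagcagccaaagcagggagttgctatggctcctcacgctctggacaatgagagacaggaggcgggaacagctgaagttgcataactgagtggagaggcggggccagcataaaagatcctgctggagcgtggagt
The windows of *Cyp2b9* and *Cyp2b13* were identical at 248 of 250 bases (99.2%). From *Cyp2b9* to *Cyp2b13* they differed by T48C and C104T, with positions counted from 1 at the 5′ end of the window. The window of *Cyp2b10* matched either of them at 75.8% of 240 aligned bases. AGGTCA, searched on both strands and chosen after the windows had been read, occurred once in *Cyp2b9* and once in *Cyp2b13*, 138 bases before the start, and not in the windows of *Cyp2b10*, *Nr1i3* or *Nr1i2*. It occurred in 14% of 32851 windows of this length. A direct repeat of this hexamer with 4 bases between the copies was searched too. It had 0 matches in the window of each member, and occurred in 0.0152% of the 32851 windows. Sequence outside the windows was not searched, so a lack of matches does not show that a gene has no such site. A match of letters does not show a binding site.

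Read totals lay between 36476021 and 44771350 a library. *Cyp2c70* was lower in every KO library (110 to 187 CPM, the counts of a gene relative to its library's total, corrected by TMM over all 32 libraries) than in any WT library (275 to 851 CPM). 9 of 10 hepatocyte markers had a row, and each of the 9 was counted in every library. The pancreatic markers *Prss1* and *Amy2a5* had 0 counts in all 32. Male WT chow replicate 1 stood apart, with a TMM factor of 0.639 and a mean correlation of 0.871 with its group, where the next lowest library was at 0.947.

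*Nr1i3*, the mRNA of CAR, was lower in KO than in WT females on either diet, and in KO females it was higher with SC-435 than on chow. In female WT chow mice it was at 49.8, 49.8, 69.7 and 58.2 CPM, and in female KO chow mice at 30.8, 23.6, 14.3 and 26.2 CPM. The groups did not overlap. It fell by 1.24 on the log2 scale, or 2.36-fold (standard error 0.21, adjusted p = 0.00509 from the quasi-likelihood test of edgeR, adjusted after Benjamini and Hochberg across the whole table). A gene was called when its adjusted p was below 0.05 and its log2 fold change beyond 1, and *Nr1i3* was the 1 member called here, where 6.68% of 16205 genes were called in either direction and 1.01% as lower. With library totals as the sole scaling, the median over all genes went from -0.02 to 0.17 and *Nr1i3* to -1.04.

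With SC-435, female KO mice had *Nr1i3* at 40.6, 42.1, 45.0 and 43.8 CPM, above all KO mice on chow. The rise passed the test (log2 fold change 0.84, standard error 0.19, adjusted p = 0.0146) but not the size asked of a call. 0 of 5 members were called in that comparison, where 5.80% of 16332 genes were, and at an unadjusted p below 0.05 there were 3, *Nr1i3*, *Nr1i2* and *Cyp2b10*, against 33.1% of all genes. DESeq2 also called 0. Female WT SC-435 mice had 65.2, 61.8, 53.9 and 58.2 CPM, so *Nr1i3* in KO mice with SC-435 stayed below its level in WT mice with SC-435. That difference was -0.47 (standard error 0.07, adjusted p = 0.00379), a fall of 1.39-fold in 4 of 4 mice, also under the size of a call. With all 32 libraries in a single fit the difference was -0.48 with an adjusted p of 0.537, so the test was not passed there. 0 members were called, where 2.56% of 15869 genes were. At an unadjusted p below 0.05 there were 2, *Nr1i3* and *Nr1i2*, against 27.1% of all genes, and DESeq2 called 0. In WT females the diet gave 0.08 (95% confidence interval -0.18 to 0.34, adjusted p = 0.758), and the WT groups overlapped. Comparisons within a sex share groups of mice and are not independent.

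*Tomm40l*, whose exons overlie *Nr1i3*, was at 9.15 CPM in female KO chow and 12.8 CPM in female WT chow mice (log2 fold change -0.48, standard error 0.13, adjusted p = 0.0351). It had between 277 and 578 counts in the 32 libraries, where *Nr1i3* had between 336 and 2836.

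In males, *Nr1i3* was at 35.9, 44.8, 38.8 and 25.7 CPM in WT chow mice and at 22.6, 24.4, 13.01 and 5.93 CPM in KO chow mice. These groups did not overlap either, yet the difference of -1.11 had a standard error of 0.39 and an adjusted p of 0.218, with a 95% confidence interval from -1.99 to -0.23. It was called in 1 of 8 alternative fits, that of all 32 libraries together. KO mice with SC-435 were at 33.1, 28.5, 24.9 and 30.1 CPM, each above every male KO chow mouse (0.80, standard error 0.36, adjusted p = 0.139). Male WT SC-435 mice had 38.0, 36.8, 38.1 and 22.7 CPM and overlapped WT mice on chow (-0.11, 95% confidence interval -0.64 to 0.41). A difference in genotype effect between the sexes on chow was not detectable, with an interaction of -0.10 (95% confidence interval -1.10 to 0.91, adjusted p = 0.984).

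**Figure D1:**
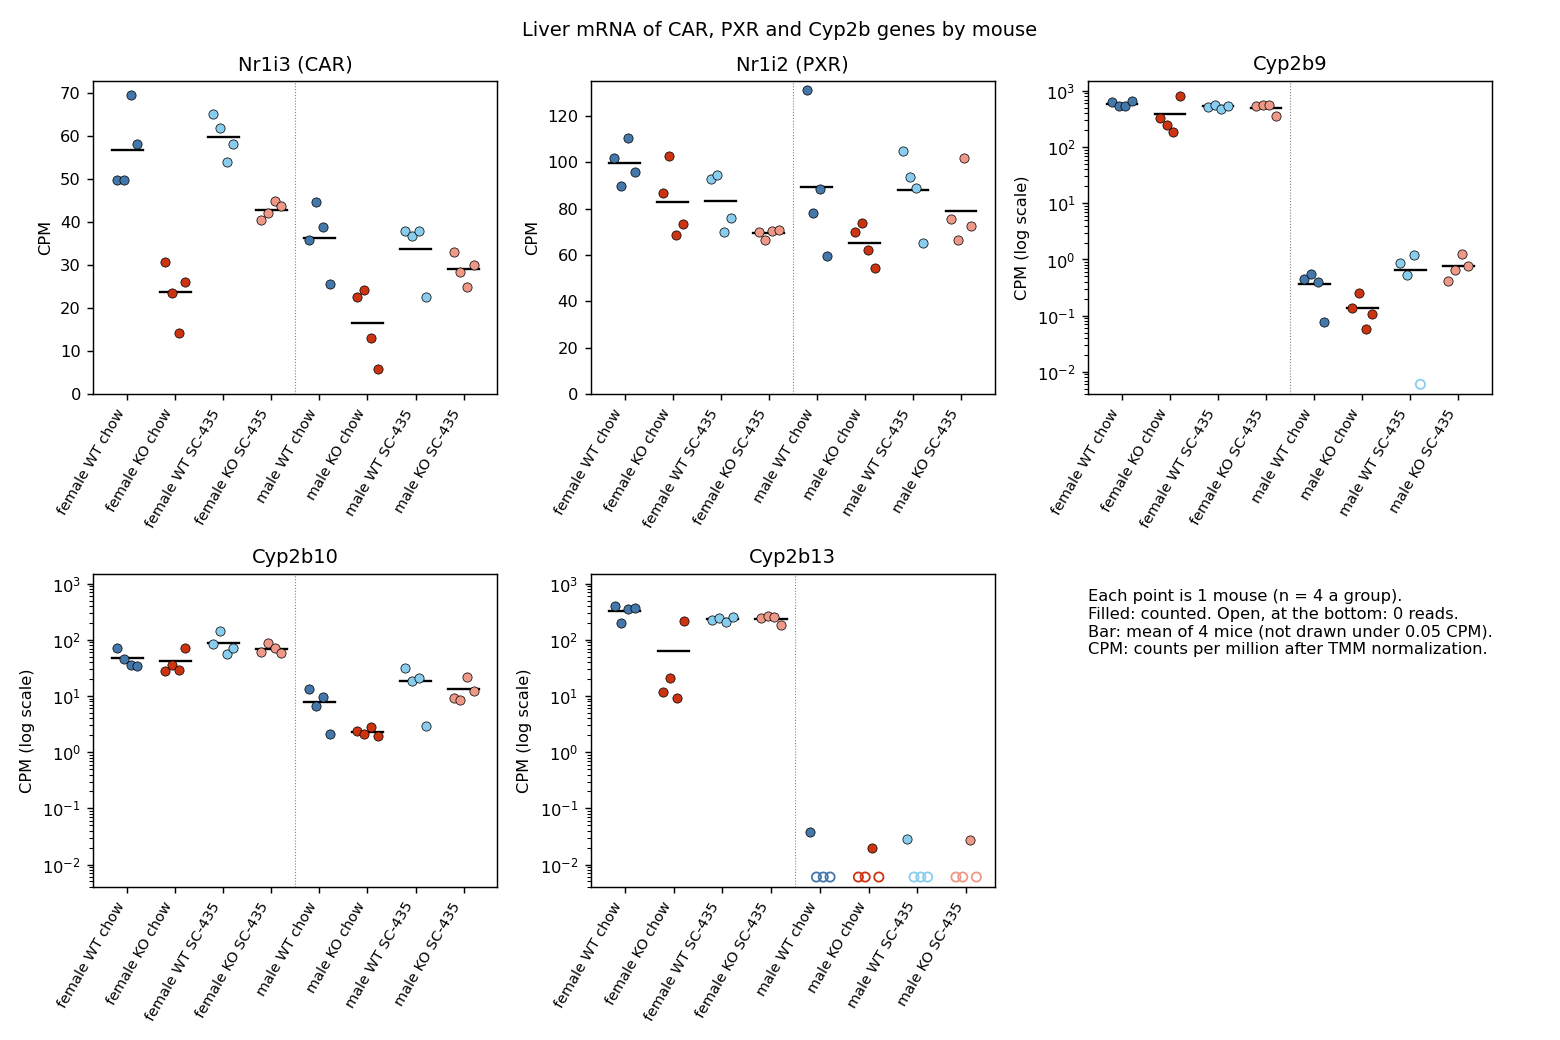
CPM per mouse for *Nr1i3*, *Nr1i2*, *Cyp2b9*, *Cyp2b10* and *Cyp2b13* in the 8 groups, on linear axes for the receptors and log axes for the Cyp2b genes. Each point is 1 mouse, bars are means of 4 mice, and open points are mice with 0 reads. *Nr1i3* is lowest in the KO chow groups, *Cyp2b9* and *Cyp2b13* are high in females alone, and 1 female KO chow mouse has *Cyp2b13* at 214 CPM while the others are between 9.39 and 20.7 CPM.

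The group means of *Nr1i3* ran from female WT SC-435 (59.8 ± 4.85 CPM, SD, n = 4) over female WT chow (56.8 ± 9.42), female KO SC-435 (42.9 ± 1.92), male WT chow (36.3 ± 8.01), male WT SC-435 (33.9 ± 7.50), male KO SC-435 (29.2 ± 3.43) and female KO chow (23.7 ± 6.92) to male KO chow (16.5 ± 8.62). Only female WT chow and female KO SC-435, next to each other in that order, had ranges that did not overlap among neighbours. Between the sexes, *Nr1i3* was higher in females with SC-435, by 0.82 in WT (standard error 0.15, adjusted p = 0.0139) and by 0.57 in KO mice (standard error 0.09, adjusted p = 0.000868). Neither passed with all 32 libraries in a single fit from edgeR, where the adjusted p was 0.106 in WT and 0.230 in KO mice. On chow it differed by 0.62 in WT (adjusted p = 0.294) and by 0.55 in KO mice (adjusted p = 0.541).

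The summed markers of bile duct cells were also higher in every KO chow liver than in any WT chow liver of the same sex. In whole liver, fewer cells of a type and less RNA per cell cannot be told apart. The summed level of 10 cholangiocyte markers was 76.4 to 123 CPM in female WT chow, 222 to 437 in female KO chow and 140 to 189 CPM in female KO SC-435 mice. For 10 macrophage markers the ranges were 307 to 363, 484 to 705 and 260 to 397 CPM. The 9 hepatocyte markers summed to 100175 to 125572, then 62769 to 85066, then 89432 to 103464 CPM. In males the cholangiocyte sum was 77.6 to 84.8 CPM in WT chow, 260 to 1342 in KO chow and 95.9 to 112 CPM in KO SC-435 mice. The highest count in any library was 63579 for *Spp1* and 10352 for *Cdh1*, against 1048 for *Sox9* and 422 for *Krt19*. *Spp1* and *Cdh1* can therefore carry these sums. By gene, 7 of 9 tested were called higher in female KO against WT chow mice, and 4 of 9 in males. Among all genes 5.67% and 0.914% were. Male KO chow replicate 4, with the lowest *Nr1i3* of all 32 mice, had the highest cholangiocyte sum. The part of this in the levels of *Nr1i3* was not tested. Without that mouse the male KO against WT difference was -0.84 (adjusted p = 0.355).

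*Nr1i2*, the mRNA of PXR, was not called in any of the 12 comparisons of 2 groups. In female WT chow mice it was at 102, 89.6, 110 and 95.9 CPM, and in female KO chow mice at 86.5, 103, 68.5 and 73.3 CPM. The groups overlapped (log2 fold change -0.24, 95% confidence interval -0.54 to 0.05, adjusted p = 0.249). Female KO SC-435 mice lay close together at 69.8, 66.4, 70.4 and 70.9 CPM (-0.27 against KO chow, adjusted p = 0.138). Male WT chow mice spread from 59.6 to 131 CPM, the widest range of a group, and its highest value is the library that stands apart. The largest difference of *Nr1i2* within a sex was -0.42 in male KO against WT chow mice (95% confidence interval -0.96 to 0.13, adjusted p = 0.447). Every group mean, from 65.0 CPM in male KO chow to 99.4 CPM in female WT chow mice, had a range that overlapped that of the next in order.

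The ratio of *Nr1i3* to *Nr1i2* within a library does not depend on the normalization between libraries. Per kilobase of the deposited gene length it was 0.330 ± 0.036 in female WT chow and 0.167 ± 0.046 in female KO chow mice (SD, n = 4), and the groups did not overlap (mean log2 difference -1.02, exact permutation test, two-sided, p = 0.0286, adjusted p = 0.0571 over 8 comparisons). It was 0.418 ± 0.032 in female WT SC-435 and 0.357 ± 0.015 in female KO SC-435 mice. The p of 0.0286 is the smallest that 4 mice against 4 can give, and it was reached in all 4 comparisons of females. In males the means were 0.248, 0.141, 0.222 and 0.221 in WT chow, KO chow, WT SC-435 and KO SC-435 mice, and the exact p lay between 0.0857 and 0.943. This ratio and the one of *Cyp2b13* to *Cyp2b9* below were chosen after the levels had been seen. The absolute ratio carries the uncertainty of the length of *Nr1i3* given above.

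Of the 3 Cyp2b genes, *Cyp2b9* had the highest level per kilobase in females. Its mean was 318 ± 36.7 CPM per kilobase in female WT chow mice, against 176 ± 48.1 for *Cyp2b13* and 22.1 ± 8.26 for *Cyp2b10*. Males had another order, with *Cyp2b10* first. It was at 3.78 ± 2.27 CPM per kilobase in male WT chow mice and *Cyp2b9* at 0.197 ± 0.109, while *Cyp2b13* had at most 1 read in any of the 16 males. The other Cyp2b rows were far lower. *Cyp2b27-ps* had 4 to 34 counts in females, *Cyp2b26-ps* 0 to 9, *Cyp2b19* 0 to 7 and *Gm45225* 0 to 13, and *Cyp2b23* had 0 in all libraries.

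*Cyp2b13* separated 3 of 4 female KO chow mice from the WT mice. It had 15180, 8387, 14220 and 15678 counts in female WT chow mice (398, 198, 349 and 374 CPM). In female KO chow mice it had 622, 1079 and 478 counts in replicates 1 to 3 and 8791 in replicate 4 (11.8, 20.7, 9.39 and 214 CPM), so replicate 4 lay within the WT range. With all 4 mice the difference of -2.36 (standard error 0.90, 95% confidence interval -4.36 to -0.36) had an adjusted p of 0.106 and was not called. Without replicate 4 it was -4.51 (adjusted p = 6.39e-05). That fit is singled out for the value of the mouse left out, here and below, so its p does not test the difference. Over the 8 fits that each left out 1 library the difference ran from -4.51 to -1.99, with adjusted p up to 0.233. With all 4 mice its adjusted p was below 0.05 in 4 of 8 alternative fits.

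With SC-435, *Cyp2b13* in female KO mice was at 249, 265, 254 and 181 CPM, and in female WT mice at 222, 246, 210 and 254 CPM. The groups overlapped, and their difference was small with a narrow interval (0.03, 95% confidence interval -0.22 to 0.28, adjusted p = 0.895). Against KO mice on chow the difference was 1.89 (standard error 0.87, adjusted p = 0.160), and 4.07 without KO chow replicate 4 (adjusted p = 8.19e-06). Over the 8 fits that each left out 1 library it ran from 1.53 to 4.07, with adjusted p up to 0.299. In WT females the diet gave -0.50 (95% confidence interval -0.91 to -0.08, adjusted p = 0.176), with 0 members called where 1.10% of 15739 genes were. At an unadjusted p below 0.05 there were 3 of 5 members, *Nr1i2*, *Cyp2b10* and *Cyp2b13*, against 19.8% of all genes. DESeq2 called 0.

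*Cyp2b9* was lower than in any WT mouse in the same 3 KO chow mice. Female WT chow mice had 633, 540, 537 and 675 CPM, and female KO chow mice 335, 249, 184 and 801 CPM, the last again replicate 4. The difference was -0.59 (standard error 0.38, adjusted p = 0.322), and -1.17 without replicate 4 (adjusted p = 0.00264). Over the 8 fits that each left out 1 library it ran from -1.17 to -0.34, with adjusted p up to 0.575. Female WT SC-435 mice were at 526, 563, 480 and 546 CPM, and KO SC-435 mice at 531, 551, 560 and 358 CPM.

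*Cyp2b10*, the CAR target, overlapped between female KO and WT mice on chow. It was at 71.7, 45.0, 35.8 and 33.8 CPM in WT chow and at 28.0, 35.4, 29.4 and 72.4 CPM in KO chow mice, with replicate 4 highest (-0.16, 95% confidence interval -0.88 to 0.56, adjusted p = 0.784). With SC-435 it was at 84.8, 145, 55.9 and 70.4 CPM in WT and at 59.8, 87.2, 72.6 and 58.9 CPM in KO females. The differences from chow were 0.94 in WT (standard error 0.31, adjusted p = 0.128) and 0.74 in KO females (standard error 0.28, adjusted p = 0.0920), neither of which passed the test. Without KO chow replicate 4 the KO difference was 1.16 (adjusted p = 0.00039). Over the 8 fits that each left out 1 library it ran from 0.60 to 1.16, with adjusted p up to 0.225.

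Female KO chow replicate 4 had the highest value of its group for all 3 Cyp2b genes, but 26.2 CPM of *Nr1i3*, the second highest of its group, and 73.3 CPM of *Nr1i2*, the second lowest. Its cholangiocyte markers summed to 222 CPM, the lowest of its group and above every female WT chow mouse, and its hepatocyte markers to 85066 CPM, the highest of its group. Its *Cyp2c70* level was 176 CPM, within the range of the KO mice. What sets this mouse apart was not tested.

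The mix of the 3 Cyp2b genes was described as well, and the ratio tested here was chosen after the levels had been seen. In female WT chow mice *Cyp2b13* made up 33.5% ± 5.62 of their reads (SD, n = 4), *Cyp2b9* 61.7% ± 5.29 and *Cyp2b10* 4.81% ± 1.58. In female KO chow mice the shares were 8.46% ± 7.62, 81.8% ± 6.43 and 9.74% ± 3.17. They were 29.5% ± 0.68, 61.8% ± 1.67 and 8.70% ± 1.29 in KO SC-435 mice. Per kilobase, *Cyp2b13* stood to *Cyp2b9* at 0.367 to 0.651 in female WT chow and at 0.0354 to 0.267 in female KO chow mice, so all 4 KO mice, replicate 4 included, lay below all WT mice (mean log2 difference -2.75, exact permutation test, two-sided, p = 0.0286, adjusted p = 0.0571 over 4 comparisons). In female KO SC-435 mice the ratio was 0.454 to 0.507, above all KO mice on chow (2.58, exact permutation p = 0.0286, adjusted p = 0.0571). In WT females the diet gave -0.29 (exact permutation p = 0.171). The p of 0.0286 is the smallest that 4 mice against 4 can give, and no adjusted p of this ratio was below 0.05. Reads common to both genes may have been left out of either count.

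**Figure D2:**
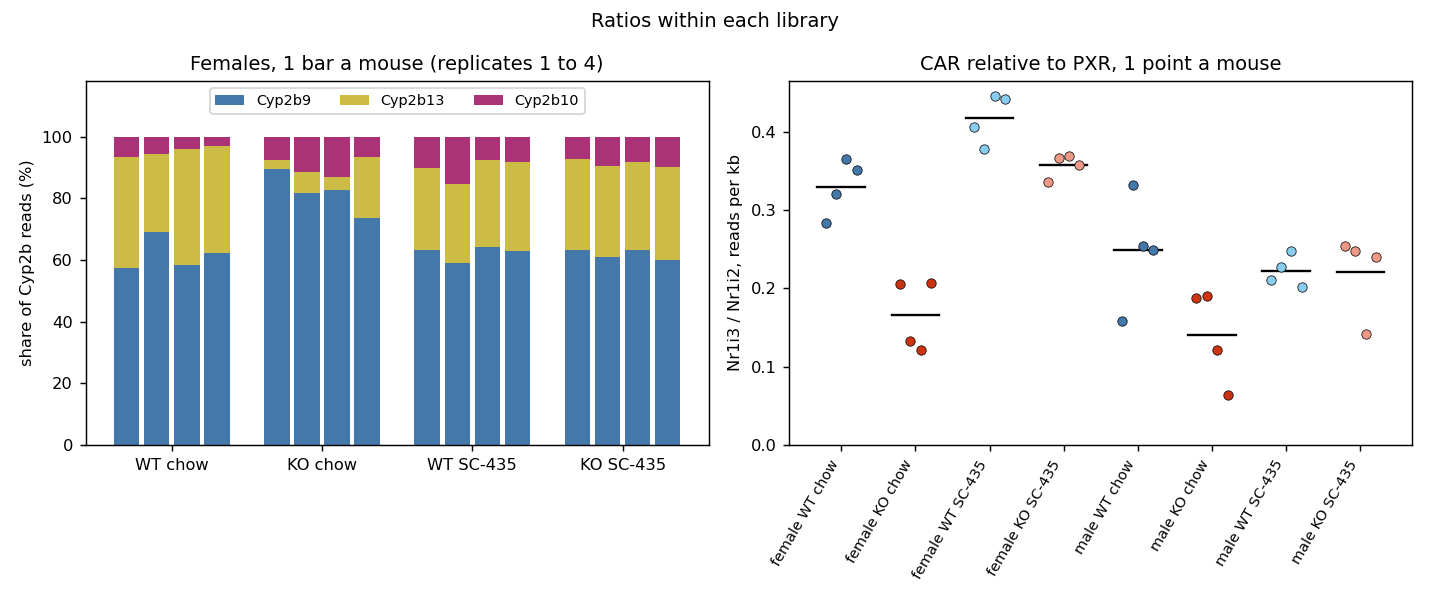
Left, shares of reads among *Cyp2b9*, *Cyp2b13* and *Cyp2b10* in percent, 1 bar for each female mouse. Right, the ratio of *Nr1i3* to *Nr1i2* in reads per kilobase, 1 point a mouse with the mean of 4 as a bar. *Cyp2b13* takes 3.16% to 19.7% of Cyp2b reads in female KO chow mice and 25.3% to 37.9% in female WT chow mice, and the receptor ratio of female KO chow mice lies below that of every other female.

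In males, the counts of *Cyp2b10* and *Cyp2b9* in KO mice were higher with SC-435 than on chow. *Cyp2b10* had 106, 92, 141 and 112 counts in male KO chow mice (2.38, 2.12, 2.78 and 1.98 CPM) and 379, 349, 820 and 495 counts in male KO SC-435 mice (9.32, 8.53, 22.1 and 12.4 CPM), with no overlap. The rise was 2.46 (standard error 0.30, adjusted p = 0.00185), or 5.52-fold. *Cyp2b9* rose from 6, 11, 3 and 6 counts to 17, 27, 46 and 30 counts (2.44, standard error 0.48, adjusted p = 0.0121), where every female had at least 9355 counts. These 2 of the 4 members tested were called where 6.45% of 15984 genes were called and 1.88% as higher, and both remained called in all 8 fits that each left out 1 library. *Cyp2b9* made up 2.07% to 10.7% of the Cyp2b reads of male KO chow mice and 4.29% to 7.18% with SC-435. Whether these few reads came from the similar transcript of *Cyp2b10* was not tested, so the 2 rises may not be separate.

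Male WT mice on chow had *Cyp2b10* at 13.5, 6.77, 9.53 and 2.09 CPM. Replicates 1 to 3 lay above every KO chow mouse and replicate 4 within their range. The difference of -1.73 (standard error 0.48) had an adjusted p of 0.131. 0 of the 4 members tested were called there, where 1.05% of 15862 genes were. At an unadjusted p below 0.05 there were 2, *Nr1i3* and *Cyp2b10*, against 15.4% of all genes, and DESeq2 called *Cyp2b10* (-1.82, adjusted p = 0.00755). With SC-435, male WT mice had 31.3, 18.7, 21.3 and 2.90 CPM. Replicate 4 was the lowest there. The WT diet difference was 1.203 (95% confidence interval -0.36 to 2.76, adjusted p = 0.836), and that between male KO and WT mice with SC-435 was -0.52 (95% confidence interval -1.75 to 0.70, adjusted p = 0.800). 0 members were called in either, nor had any an unadjusted p below 0.05, as 6.12% and 8.85% of all genes had, and DESeq2 called 0. The shares of all genes called were 0.0394% and 0.0259%. *Cyp2b13* was too low to be fitted in the male comparisons, and the exact permutation test gave p = 1 in each of 4.

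**Figure D3:**
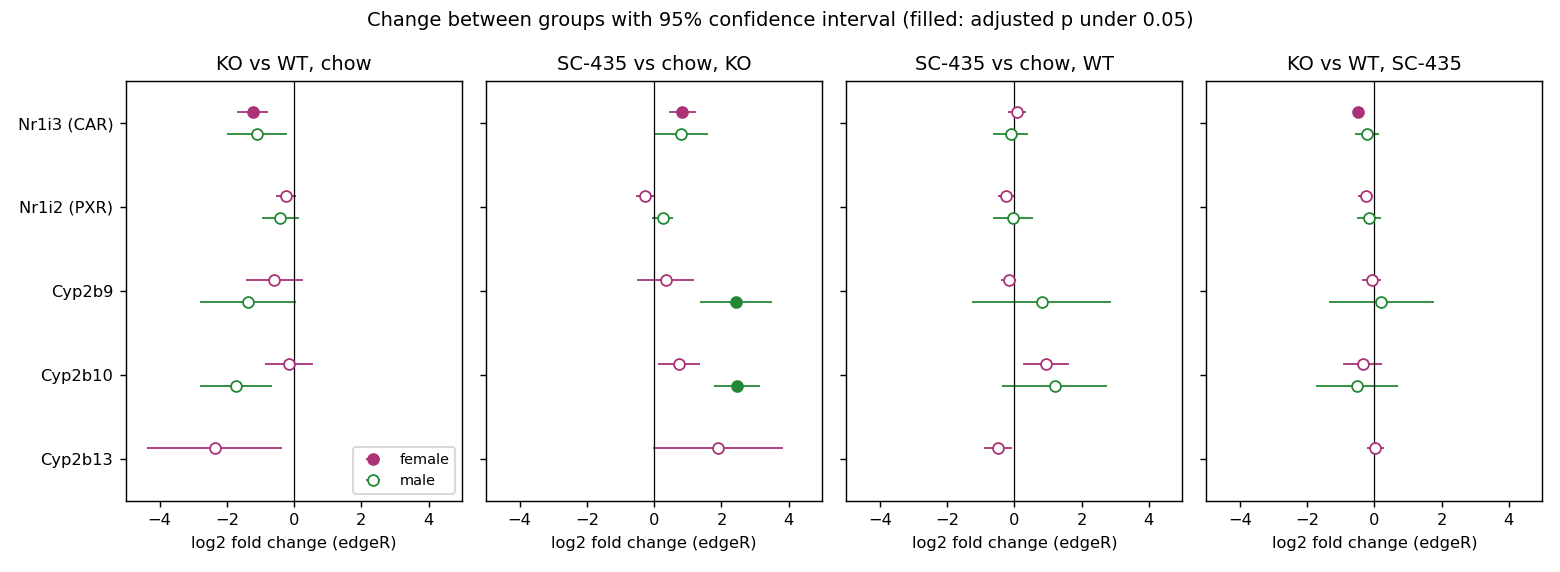
Log2 fold change with 95% confidence interval from edgeR for the 5 genes in the 4 comparisons within each sex (females purple, males green; filled, adjusted p below 0.05). Filled points are *Nr1i3* in 3 comparisons of females and *Cyp2b9* and *Cyp2b10* in male KO mice with SC-435 against chow. *Cyp2b13* has points for females alone.

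No member was called for a difference between effects. The genotype by diet term in females was 0.76 for *Nr1i3* (standard error 0.23, adjusted p = 0.0852) and 2.40 for *Cyp2b13* (standard error 0.97, adjusted p = 0.180), with 2.64% of 16882 genes called at an adjusted p below 0.05. Those 2 were the members with an unadjusted p below 0.05, against 19.9% of all genes. Without KO chow replicate 4, *Cyp2b13* was called (4.55, adjusted p = 4.59e-06) and so was *Cyp2b9* (1.11, adjusted p = 0.0084). Over the 16 fits that each left out 1 library the terms ran from 2.02 to 4.55 and from 0.27 to 1.11. The adjusted p reached 0.289 for *Cyp2b13* and 0.774 for *Cyp2b9*. DESeq2 called *Nr1i3* alone. In males, where 0.0906% of genes were called, the term was 0.90 for *Nr1i3* (adjusted p = 0.401), and 0 members had an unadjusted p below 0.05, against 13.3% of all genes. DESeq2 called 0. The term for sex by genotype on chow, with 0.0235% of genes called, was 1.63 for *Cyp2b10* (standard error 0.61, unadjusted p = 0.0165 and adjusted p = 0.629 from edgeR), the 1 member with an unadjusted p below 0.05, against 6.26% of all genes. DESeq2 called 0 there. The term for sex by diet in KO mice, with 0.211% of genes called, was -1.74 for *Cyp2b10* (standard error 0.45, adjusted p = 0.119) and -2.13 for *Cyp2b9* (standard error 0.76, adjusted p = 0.259). *Nr1i2* (-0.54) was the other member with an unadjusted p below 0.05 there, against 12.5% of all genes. DESeq2 called *Cyp2b10* (-1.73, adjusted p = 0.0111).

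The sexes differed far more in *Cyp2b9* and *Cyp2b13* than did the groups within a sex. *Cyp2b9* was higher in females by 10.63, 11.50, 9.66 and 9.37 on the log2 scale in WT chow, KO chow, WT SC-435 and KO SC-435 mice, with adjusted p from 2.71e-09 to 6.16e-05 and no overlap. *Cyp2b13* passed the test in all 4 as well, with adjusted p from 6.49e-11 to 0.00893. Against a floor of 3 counts in a male library it was at least 2899.9-, 927-, 2669- and 2936-fold higher in the female mean of WT chow, KO chow, WT SC-435 and KO SC-435 mice. The KO chow mean was carried by female replicate 4. Without it the bound was at least 203-fold, and for the lowest KO chow female at least 136-fold. Without male KO chow replicate 3, the 1 mouse of its group with a read, the KO chow difference of *Cyp2b13* had an adjusted p of 0.0970.

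*Cyp2b10* was higher in females in every pair of groups, by 2.52 in WT chow mice (standard error 0.51, adjusted p = 0.0513), 4.17 in KO chow (0.33, adjusted p = 0.000331), 2.26 in WT SC-435 (0.57, adjusted p = 0.0447) and 2.43 in KO SC-435 mice (0.26, adjusted p = 0.000101). The first is not called and 7 of 8 alternatives call it, with the library that stands apart left out too (2.91, adjusted p = 0.00459). The third is called and loses the call in 7 of 8 fits that leave out 1 library. Called members were 2 of 5 in WT chow, where 1.40% of 15525 genes were called, and 3 of 5 in each of KO chow (1.57%), WT SC-435 (2.15%) and KO SC-435 mice (6.02%).

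Other genes known as targets of CAR or PXR were counted from a list of 34, of which 33 had a row. In female KO chow against WT chow mice 6 were called higher and 4 lower, with a median of -0.21 against -0.02 over all genes. Of all genes 5.67% were called higher and 1.01% lower. Called lower, with no overlap between the groups, were *Sult2a1*, a sulfotransferase of BAs and steroids, from 59.4 to 2.76 CPM (-4.43, standard error 0.86, adjusted p = 0.00872), *Cyp2c54* and *Cyp2c50* (-1.05 each). Called higher without overlap were *Akr1b7*, an aldo-keto reductase (2.01), *Abcb1a*, the efflux pump P-glycoprotein (1.67), and *Cyp2c55* (1.23).

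In female KO SC-435 against KO chow mice 10 of 33 were called higher and 1 lower, with a median of 0.64 against -0.02 over all genes. Of all genes 2.11% were called higher and 3.70% lower. Of those without overlap, *Sult2a1* rose from 2.79 to 263 CPM (6.57, adjusted p = 0.000795), *Gsta1*, a glutathione transferase, from 3.45 to 16.6 CPM (2.27) and *Cyp2a5* from 472 to 1523 CPM (1.69). *Abcb1a* fell by 1.36 on the log2 scale. In WT females the diet raised 2 of 33, where 0.686% of all genes were called higher, *Cyp2a5* (1.05) and *Abcc4*, an efflux transporter of conjugated BAs (5.35 to 12.3 CPM). In female KO against WT mice with SC-435 5 were called higher and 0 lower, where 1.99% and 0.567% of all genes were, led by *Gsta1* (3.23), *Gstm3* (1.38) and *Cyp2c55* (1.26).

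In male KO SC-435 against KO chow mice 8 of 31 tested were called higher and 1 lower, with a median of 0.71 against -0.03 over all genes. Of all genes 1.88% were called higher and 4.57% lower. *Cyp2a5* rose from 323 to 1188 CPM (1.87), *Abcc4* from 4.78 to 13.7 CPM and *Cyp2c37* from 137 to 365 CPM (1.40). In male KO against WT chow mice *Gadd45b* was called higher (2.34) and *Cyp2a5* lower (-1.72), 1 of 29 tested in each direction, where 0.914% and 0.132% of all genes were called. The other comparisons of males called 0 of 29. *Sult2a1*, the Cyp2c and the glutathione transferase genes belong to families with close copies, and how reads were shared among those copies was not measured.

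**Figure D4:**
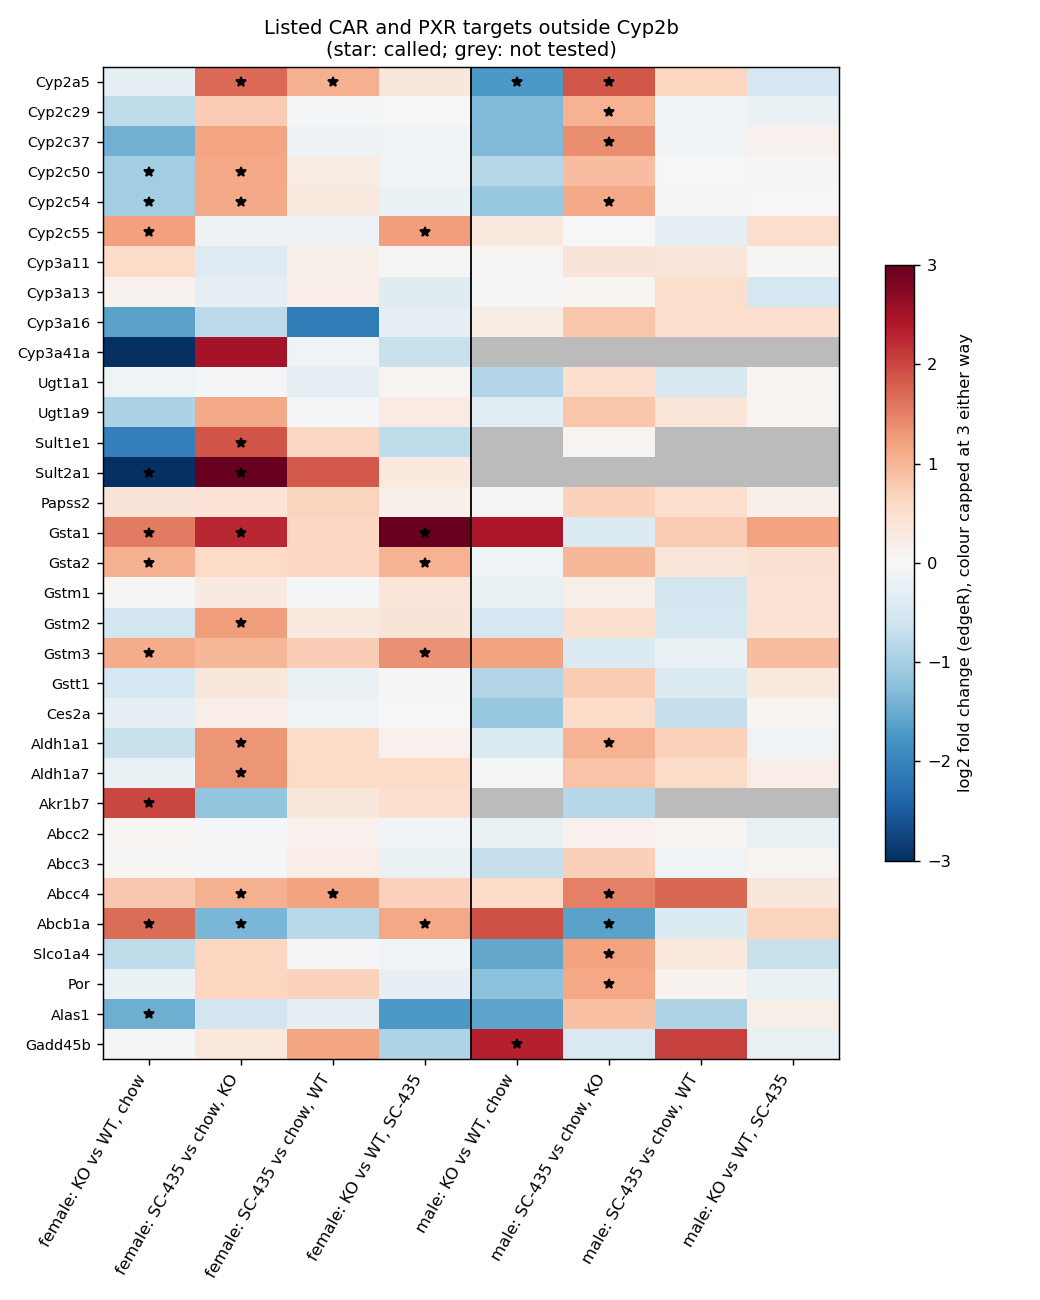
Log2 fold change from edgeR for 33 listed targets of CAR or PXR outside the Cyp2b family (rows) in 8 comparisons within sex (columns), capped at 3 for the colour. Stars mark called genes and grey marks genes not tested. Stars lie mostly on red in the columns that compare KO mice on both diets, 10 in females and 8 in males, and on both colours in the column for female KO against WT on chow.

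Of 23 partners of CAR and PXR, such as *Rxra*, *Hnf4a* and coactivators, 0 were called in either sex for KO against WT on chow. The shares of all genes called there were 6.68% in females and 1.05% in males. *Nr0b2*, a corepressor of nuclear receptors that BAs induce, fell with SC-435 in WT females from 64.8 to 25.2 CPM (-1.36, adjusted p = 0.0345) and in KO males by 1.95 on the log2 scale (adjusted p = 0.0258, groups overlapping). It was the 1 gene of the 23 called in each of those comparisons, where 0.413% and then 4.57% of all genes were called lower. Of 13 genes of growth hormone signalling and sex-dependent control, 2 were called lower in female KO SC-435 against KO chow mice, *Cish* and *Socs2* (-2.97 and -1.34), feedback inhibitors induced by the hormone. 2 were called lower in female WT SC-435 against WT chow mice, *Cish* (-2.45) and the transcription factor *Onecut1* (-2.42, groups overlapping), and 1 in male KO SC-435 against KO chow mice, the repressor *Bcl6* (-2.23, groups overlapping). 0 of the 13 were called in the other 5 comparisons within a sex. Of 16 genes biased to the female liver, 1 was called higher and 4 lower in female KO chow mice, with a median of -1.58 against -0.02 over all genes, and 4 higher and 1 lower in female KO SC-435 against KO chow mice (median 0.89). In female WT SC-435 against WT chow mice 0 were called higher and 2 lower (median -0.64). Of 14 genes biased to the male liver, 1 was called higher and 4 lower in female KO chow mice (median -0.46), 2 higher and 1 lower in female KO SC-435 against KO chow mice (median 0.19), and 3 higher and 1 lower in female WT SC-435 against WT chow mice (median 0.18). Among all genes 5.67% were called higher and 1.01% lower in female KO against WT chow mice. These shares were 2.11% and 3.70% in female KO SC-435 against KO chow mice. They were 0.686% and 0.413% in female WT SC-435 against WT chow mice. In male KO SC-435 against KO chow mice 3 of 9 tested female-biased genes were called higher and 1 lower (median 0.84). Of the male-biased genes 1 was called higher and 2 lower there (median -0.26), where 1.88% and 4.57% of all genes were. In male KO against WT chow mice 1 of 8 tested female-biased genes was called lower, where 0.132% of all genes were. No male-biased gene was called there. The female-biased list holds *Sult2a1*, *Cyp3a16* and *Cyp3a41a* of the target list.

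Across the 32 libraries, the genes whose log2(CPM + 0.1) correlated best with *Nr1i3* were *Cyp2c37* (Pearson r = 0.90), *Cyp2c54* (0.88) and *Sdc2* (0.87). Over deviations from the group means, these were 0.76, 0.73 and 0.57. *Cyp2b10* was most like *Fmo1* (0.93), *Sult1a1* (0.92) and *Cyp2c40* (0.91). *Cyp2b9* correlated with *Cyp2a4* (0.99) and *Xist* (0.98), of which *Xist*, the RNA of the inactive X chromosome, had 0.0057 over deviations within groups. *Cyp2b13* correlated with *Sult3a1* and *Sult2a2* (0.98 each). *Nr1i2* reached 0.75 with *Ubqln4*, *Aldh2* and *Dpys*. Of the 3 genes given for *Nr1i2* and the 3 for *Cyp2b10*, 0 stayed among the first 3 without male WT chow replicate 1. The libraries share sex, diet and genotype, so these values describe patterns over the groups.

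Within a sex the likeness was to other genes. In the 16 female libraries *Nr1i3* was most like *Atf5* (0.95), *Rnf10* and *Ech1* (0.93 each), and *Cyp2b13* most like *Rdh16f2*, *Cyp2j5* (0.98 each) and *Slc22a27* (0.97). In the 16 males *Nr1i3* was most like *Slc27a2*, *Pbld1* (0.97 each) and *Slc10a1*, the BA uptake transporter of hepatocytes (0.95). Among the members, *Cyp2b9* and *Cyp2b10* had r = 0.61 in females and 0.88 in males over deviations from the group means. In females *Cyp2b13* had 0.90 with *Cyp2b9* and 0.64 with *Cyp2b10*. *Nr1i3* and *Cyp2b10* had 0.08 in females and 0.37 in males by the same measure, and *Nr1i2* and *Cyp2b10* 0.15 and 0.84. The male value of *Nr1i2* includes the library that stands apart.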

How the data were processed

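RNA-Seq of 32 mouse livers was analysed from a table that the authors deposited. Its counts are whole numbers of reads per gene, made by the authors with HISAT2 2.0.5 and featureCounts 1.5.0-p3 on mm10, as the submitters' processing notes name them. Annotation release and strandedness are not given in the sources used here. FPKM values deposited by the authors were not used, nor were the fold changes and p-values of the authors' 7 DESeq2 comparisons. The members and lists were chosen with earlier results of these data known.

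Groups were read from the sample labels, which start the diet 3 weeks after weaning. The paper instead gives weaning at 4 weeks of age, with SC-435 fed from weaning until tissue was collected. Which timing holds for these libraries was not resolved. Pairs of groups were tested with edgeR 4.0.16 (filterByExpr, TMM, glmQLFit, glmQLFTest) in R 4.3.3 and 4 interactions on 16 libraries each, with Benjamini-Hochberg adjustment. The test was tried on simulated data. CPM used 1 TMM normalization of 32 libraries, except for listed genes outside the 5 members, whose CPM come from the pair compared. Levels between genes are per kilobase of the deposited length. Counts of 3 set the floor of a library. Replicates differed by more than sampling noise (chi-square per gene of at least 18.5 in 48 pairs). Alternatives were median-of-ratios factors, total counts only, DESeq2 1.42.0, voom with quality weights (limma 3.58.1), other filters on low counts, a replicate block, a single fit of 32 libraries and leaving out each library. Likeness within a sex was added after seeing the data. Named from lists were up to 3 called rises and falls whose groups did not overlap and whose counts averaged 50 or more, and genes beyond that rule were chosen after their values were seen. Likeness was computed among genes that averaged 50 or more counts. The 3 most alike genes of each member are named, except where a gene is not reported here. Sequences came from RefSeq windows and GENCODE transcripts. P-values judge a difference between groups against the spread between mice of a group, or in the exact test against regroupings of the mice.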

Additional observations from a re-analysis of the deposited data

Results flagged for a closer look

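In 4 of the 36 combinations of gene and group that were tested, 1 mouse lay apart from the other 3 of its group by Dixon's test at its 95% critical value. Chance alone would be expected to set some groups apart in this way. *Cyp2b13* in female KO chow replicate 4 was at 214 CPM, above the other 3 at 9.39 to 20.7 CPM. *Cyp2b10* in the same mouse was at 72.4 CPM, above the others at 28.0 to 35.4 CPM. *Cyp2b9* in female KO SC-435 replicate 4 was at 358 CPM, below the others at 531 to 560 CPM. *Nr1i3* in male WT SC-435 replicate 4 was at 22.7 CPM, below the others at 36.8 to 38.1 CPM. Causes were not tested.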

How the results depend on the processing

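The fall of *Nr1i3* in female KO against WT chow mice and the rise of *Cyp2b10* in male KO SC-435 against KO chow mice kept direction and call in all 8 alternatives and without any single library. Members called in female KO against WT chow mice were 1 in the fit reported and 2 with all 32 libraries in one fit, with no filter on low counts and with voom, and 1 to 3 when a library was left out. In female KO SC-435 against KO chow mice they were 0, then 1 with all 32 libraries and with voom, and 0 to 2 when a library was left out. In male KO against WT chow mice they were 0, then 2 with all 32 libraries, *Nr1i3* and *Cyp2b10*, and 1 with DESeq2, *Cyp2b10*. In male KO SC-435 against KO chow mice they were 2, and 1 when a mean of 50 counts was asked, since *Cyp2b9* then left the test. The genotype by diet term in females went from 0 to 1 with DESeq2 and to 0 to 2 when a library was left out, and sex by diet in KO mice from 0 to 1 with DESeq2. With all 32 libraries in one fit, *Nr1i3* no longer passed the test in female KO against WT SC-435 mice (adjusted p = 0.537) or between the sexes with SC-435 (0.106 in WT, 0.230 in KO mice), differences under the size of a call. Where no construction is named, the cause was not tested.

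Same-numbered mice correlated between -0.30 and 0.44 in their deviations, and in 0 of 12 comparisons did every pair exceed 0.1, so the number was not taken as pairing. With a replicate block, the members called in female KO against WT chow mice were 2, *Nr1i2* in male WT SC-435 against chow was at 0.0037, and *Cyp2b10* between WT sexes on chow was called.

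Directions turned only in differences that were not called. With total counts only, *Cyp2b10* in female KO against WT chow was at 0.024, and *Nr1i2* at 0.12 in male WT SC-435 against chow, 0.00092 between sexes in WT SC-435 mice and -0.065 for genotype by diet in males. With voom, *Nr1i2* was at 0.26 in male WT SC-435 against chow and *Cyp2b9* at -0.066 in male KO against WT SC-435 mice. With no filter, *Nr1i2* was at 0.0019 for genotype by diet in females. Leaving out a library gave *Cyp2b10* -0.54 to 0.13 in female KO against WT chow and -0.49 to 0.20 for genotype by diet in females, *Cyp2b13* -0.025 to 0.14 and *Cyp2b9* -0.14 to 0.051 in female KO against WT SC-435, and *Cyp2b9* -0.20 to 0.70 in the same comparison of males. *Nr1i2* ran from -0.20 to 0.025 and -0.028 to 0.39 between sexes in WT SC-435 and WT chow mice, -0.11 to 0.081 for genotype by diet in females, -0.17 to 0.22 in male WT SC-435 against chow and -0.043 to 0.37 for sex by genotype. *Nr1i3* ran from -0.24 to 0.046 in male WT SC-435 against chow, -0.23 to 0.31 for sex by diet and -0.37 to 0.15 for sex by genotype.

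Counts over all genes moved more in males. KO against WT chow gave 166, 956 with DESeq2, 963 with voom, 1677 with all 32 libraries and 17 with the replicate block, and WT SC-435 against chow gave 6, 139, 385, 172 and 0. With total counts only, the share of higher calls in KO SC-435 against KO chow mice went from 36.3% to 23.5% in females and from 29.2% to 15.9% in males.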
